A study of Mus musculus with 16 samples.

Results

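The 49 genes described here encode the machinery that copies chromosomal DNA, together with the enzymes that supply its nucleotides and the regulators that open S phase. They were chosen by gene symbol, from the origin recognition complex to the histone mRNA binding protein, and each symbol matched 1 row among the 21965 genes of the deposited table. All 49 had at least 10 counts in 4 or more of the 16 libraries, so none was lost to low counts, and all 49 were among the 11319 genes tested. Their transcripts were followed in RAW264.7, a mouse macrophage line of tumour origin that divides in culture, so these genes were active before any treatment.

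The study asked what tirzepatide does in macrophages given oxidised low-density lipoprotein (oxLDL). Its 16 RNA sequencing libraries fall into 4 groups of 4: vehicle (culture medium alone), 50 µg/ml oxLDL, 100 nmol/ml tirzepatide (the unit is the labels' own), and oxLDL with tirzepatide at those doses. OxLDL is taken up through scavenger receptors and turns macrophages into the foam cells of arterial plaques. Tirzepatide, a peptide drug for diabetes and obesity, is an agonist at the GIP and GLP-1 receptors. Every group was the same line in high-glucose medium with serum and antibiotics; the labels state neither how long treatment lasted nor any change of genotype. Nor do they state that replicates were independent cultures; a p-value here weighs a difference only against the spread among the libraries at hand, which may be technical.

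DNA replication is prepared in G1, when ORC, Cdc6 and Cdt1 load the ring of Mcm2 to Mcm7 onto origins, a step called licensing. At the start of S phase Cdc45 and the GINS complex join the ring to form the active helicase, and primase with polymerases alpha, delta and epsilon then synthesises DNA behind it, held by the clamp PCNA. Many of these genes are transcribed late in G1 under E2F factors, which cyclin E with its kinase helps to release. In tissue, most macrophages divide little and express these genes at low levels, whereas a cycling line such as RAW264.7 expresses them steadily.

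Library totals ran from 15877278 to 17336019 counts and differed little between groups. All 10 macrophage markers checked were detected in every library, with a summed level of 17848 to 19089 TPM (a transcript abundance scaled for length and depth, with the same total in every library) in control, 22608 to 23970 with oxLDL, 21122 to 22012 with tirzepatide and 22190 to 24491 with both. Most of each sum was Lyz2, at 15200 to 21300 TPM, with the other markers between 38 and 963. At an adjusted p under 0.05 by edgeR, Csf1r, Itgam, Lyz2 and Cd14 were above control with each agent alone and with both. Ptprc was also higher with both, and Adgre1 was lower with tirzepatide. These calls are 40% of the markers with oxLDL, 50% with tirzepatide and 50% with both, beside 4.54%, 4.08% and 8.94% of all tested genes. The 3 T cell markers were listed at 0 in all 16 libraries. Of 20 pancreatic acinar markers, 2 were not found in the table and none of the others was at 0 in every library; their summed level was 308 TPM in control 1 and 164 in control 2, against 23.7 to 42.9 in the other controls, 7.16 to 38.5 with oxLDL, 8.16 to 63.8 with tirzepatide and 8.57 to 59 with both. Control 1 also had the highest share of mitochondrial counts, 11.2% against 7.69% to 10.5% in the other 15 libraries. Library 2 of the combination group held 3.91 TPM of Il1b, an oxLDL-induced cytokine, near the 3.38 to 4.03 TPM of the tirzepatide group, while the other combination libraries held 23.2 to 25.9 TPM. In every group the mitochondrial share was higher in the libraries numbered 1 and 2 than in those numbered 3 and 4: 9.53% or more against at most 8.39% in control, 8.91% or more against at most 8.36% with oxLDL, 8.67% against at most 8.23% with tirzepatide, and 9.37% or more against at most 8.38% with both. Calls that are gained or lost without control 1, without controls 1 and 2 or without combination 2 are named with the genes below.

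Because E2F factors and the CCAAT-binding factor NF-Y are textbook regulators of this gene class, the promoters of the members were searched for their letters. A promoter window of 250 bases before to 50 after the annotated start was at hand from RefSeq for 40 of the 49 members, on build GRCm38.p6, which is not the GRCm39 build of the deposited counts. The others are Ccne2, Exo1, Gins1, Gins2, Gins4, Mcm4, Pole, Prim2 and Rfc2. The E2F search used TTTGGCGC, TTTCCCGC, TTTGCCGC and TTTCGCGC on both strands, and 14 of the 40 members (35%) held at least 1 match, compared with 2.6% of all 27025 genes with a window and 4.89% of the 8888 tested genes with one. CCAAT, on either strand, was found in 24 of the 40 (60%), against 41.1% of all genes and 43.5% of tested genes. Both kinds of match, in the same or in different windows of a gene, occurred for 9 members (22.5%), against 1.26% and 2.43% of genes. Counted by single window, 9 of 46 member windows held both (19.6%), against 0.962% of all windows and 1.78% of those of tested genes. Some matches overlap each other. A match is only these letters in this window. The stretch from 120 bases before to 30 after the start is shown for 5 of the 7 genes that changed in some comparison: 3 subunits of the MCM ring, Pold2, which encodes a subunit of DNA polymerase delta, and Rrm2, which encodes the small subunit of ribonucleotide reductase. Capitals mark E2F and CCAAT matches, run together where they overlap.
Mcm2: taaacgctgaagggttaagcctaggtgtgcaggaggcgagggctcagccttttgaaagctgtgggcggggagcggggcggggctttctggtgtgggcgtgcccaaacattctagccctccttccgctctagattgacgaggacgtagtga
Mcm6: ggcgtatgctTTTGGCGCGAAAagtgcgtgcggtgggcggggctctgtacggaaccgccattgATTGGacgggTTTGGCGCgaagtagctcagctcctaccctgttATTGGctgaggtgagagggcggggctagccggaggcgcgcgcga
Mcm7: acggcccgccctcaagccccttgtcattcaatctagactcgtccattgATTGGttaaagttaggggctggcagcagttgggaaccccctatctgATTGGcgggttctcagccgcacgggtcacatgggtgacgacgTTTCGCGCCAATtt
Pold2: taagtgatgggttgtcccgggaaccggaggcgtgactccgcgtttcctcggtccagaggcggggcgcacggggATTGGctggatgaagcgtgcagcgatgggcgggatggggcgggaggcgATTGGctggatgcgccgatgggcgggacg
Rrm2: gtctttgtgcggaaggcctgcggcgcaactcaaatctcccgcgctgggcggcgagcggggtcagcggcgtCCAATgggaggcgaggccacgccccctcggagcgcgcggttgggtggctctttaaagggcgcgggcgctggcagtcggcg

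These stretches lie at chr6:88898751-88898900, chr1:128359676-128359825, chr5:138171854-138172003 and chr11:5878227-5878376, all on the minus strand, and at chr12:24708134-24708283 on the plus strand (GRCm38.p6). They read 5′ to 3′ along the gene's own strand, and for Mcm7 and Pold2 the first of 2 listed windows is shown. The Mcm6 stretch holds 3 E2F matches, of which 2 overlap on opposite strands, and 2 CCAAT matches. That of Mcm7 holds 1 E2F match, which overlaps 1 of its 3 CCAAT matches. Pold2 has 2 CCAAT matches, Rrm2 has 1, and the Mcm2 stretch has neither, although its longer window has 1 CCAAT. Of the called genes not shown, Rrm1 has 2 CCAAT matches and no E2F match in this stretch. Ung has neither kind of match, in this stretch or in its longer window.

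Transcript levels of the machinery in untreated cells spanned from 154 ± 4.96 TPM (SD, n = 4) for Pcna, the sliding clamp, to 3.55 ± 0.419 for Cdc6, the loader of the MCM ring. Cdt1, the partner of Cdc6 in licensing, came next to Pcna at 114 ± 16.9 TPM, so the 2 loading factors lay at opposite ends of the order. Rrm2 followed at 71.5 ± 6.03 TPM. The 6 subunits of the MCM ring, which assemble in equal numbers, lay between 31.5 TPM for Mcm4 and 59.9 for Mcm2. The helicase activators were lower, from 8.83 TPM for Mcm10 to 21.3 for Gins4, and the polymerase and primase subunits ran from 9.37 for Pole to 24 for Pola2. Among S-phase regulators the levels were 10.9 ± 2.29 TPM for Ccne1, 8.51 ± 1.52 for E2f1 and 6.37 ± 0.97 for Ccne2. Neighbours in this order mostly could not be separated: in 43 of 48 neighbouring pairs the 4 control libraries overlapped, and the pairs that did not were Pcna and Cdt1, Cdt1 and Rrm2, Rrm2 and Mcm2, Mcm4 and Orc6, and Orc1 and Cdc6.

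**Figure D1:**
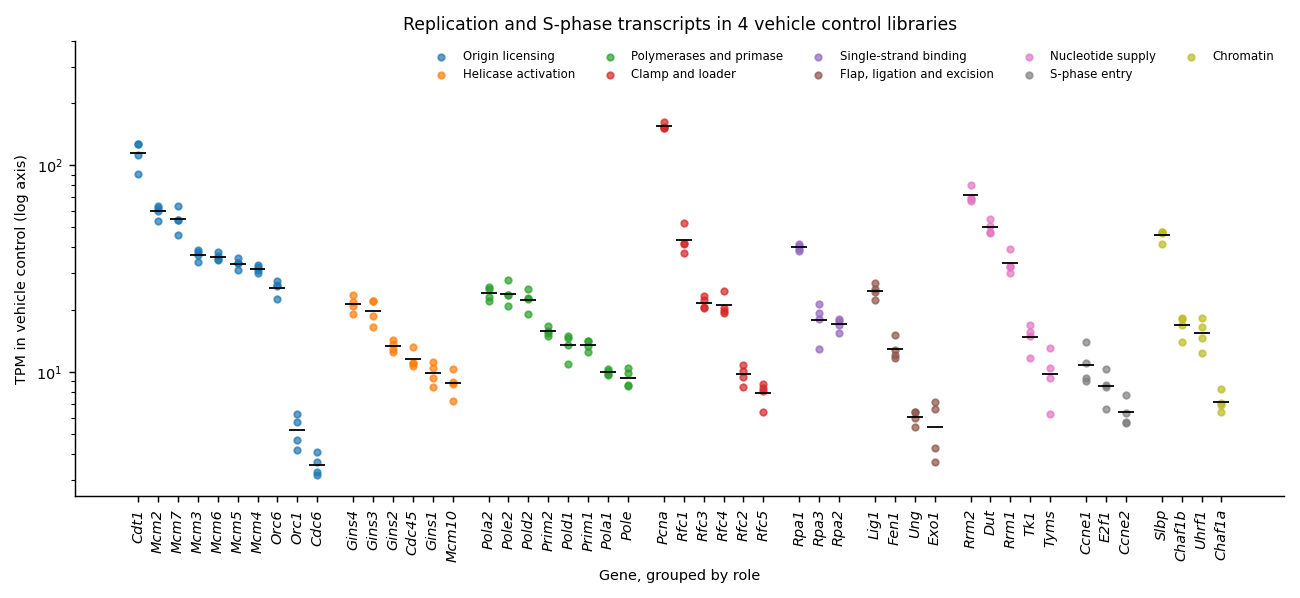
Level of each of the 49 genes in the 4 vehicle control libraries (points, TPM on a log axis; bars are means), grouped by role. Pcna and Cdt1 stand above 100 TPM, and Orc1, Cdc6, Ung and Exo1 lie at or below 6.03 TPM.

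Spread between replicates set what could be seen. The coefficient of variation within groups had a median of 9.29% over the 49 genes, against 8.63% over all tested genes, and ran from 3.34% for Mcm6 to 26.9% for Exo1, an exonuclease. Gins2, Rfc2, Rfc5, Tyms and Chaf1a had non-whole expected counts in all 16 libraries, as arises when reads shared with other genes are divided among them, so their values are less certain. For Tyms, thymidylate synthase, the scales also parted: its mean was 9.76 TPM in control and 13.4 with oxLDL, while its log2 change in counts was 0.048 (95% interval −0.22 to 0.31). Among others, Mcm7 with tirzepatide and Ung with each agent alone also moved further in mean TPM than in counts. TPM depends on the transcript lengths assigned to a gene, and the tests below used counts.

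OxLDL alone left most of the replication machinery near its control level. Of the 49 genes, Mcm2 rose and Pold2 fell at an adjusted p under 0.05 by edgeR's quasi-likelihood test, which is 4.08% of the members beside 4.54% of all tested genes (2.49% higher and 2.05% lower). The median log2 change of the members was 0.025, and that of all tested genes was −0.0021. For 46 of the 49 the 95% interval of the change lay within 1.5-fold either way, and the 3 whose interval reached further were Gins1, Pold2 and Ung. Without control 1 the count was 4 (2 higher, 2 lower), beside 523 of all genes called in place of 514. Without controls 1 and 2 together it was 1, Pold2, beside 307 of all genes.

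Tirzepatide alone was followed by small rises in Mcm2, Mcm7 and Rrm2, and no member passed in the other direction. That is 6.12% of the members beside 4.08% of all tested genes (2.34% higher, 1.74% lower). The median change was 0.043 on the log2 scale against −0.00014 for all tested genes, 30 of the 49 values were positive, and 47 intervals lay within 1.5-fold, those of Gins1 and Ung reaching further. The count was sensitive to single libraries. It was 2 (Pole and Rrm2) without control 1, and 0 without control 2, control 3, tirzepatide 1 or tirzepatide 2. Calls over all genes were then 502, 119, 247, 186 and 199, in that order, in place of 462. The member count was 1 without oxLDL 2, oxLDL 3, oxLDL 4, tirzepatide 4 or library 4 of the combination. Calls over all genes were then 379, 393, 361, 321 and 394. Without controls 1 and 2 together the member count was 0 by edgeR, when 204 of all genes were called. Without combination 2 it was 4, with Prim2 added, and 542 of all genes were called.

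Tirzepatide added to oxLDL, the comparison closest to the study's question, moved no replication gene past the threshold: 0 of 49 by edgeR beside 0.0353% of all tested genes, with 4 members and 10.1% of all genes at an unadjusted p under 0.05. DESeq2 called 1 member, Gins2, a subunit of the GINS complex, beside 21 of all genes. The median change was 0.024 on the log2 scale, and 46 of 49 intervals lay within 1.5-fold, those of Gins1, Gins2 and Ung reaching further. The smallest adjusted p was that of Gins2. Leaving out the combination library with low Il1b gave 0 members by edgeR, beside 3 of all genes in place of 4. The Gins2 change was then 0.40 (adjusted p = 0.449 by edgeR).

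Addition of oxLDL to tirzepatide likewise gave 0 members by edgeR and by DESeq2. That is beside 1.54% of all tested genes by edgeR (0.76% higher, 0.777% lower) and 308 of all genes by DESeq2. At an unadjusted p under 0.05 by edgeR there were 8 of the 49 members and 13.8% of all tested genes. The median was −0.033, 17 of 49 values were positive, and 47 intervals lay within 1.5-fold. The interaction, which asks whether the log2 effect of both agents differs from the added effects of each alone, gave 0 members by edgeR. That is beside 0.0707% of all tested genes (0.0265% higher, 0.0442% lower). An unadjusted p under 0.05 by edgeR was reached by 8 of the 49 members and 10.3% of all tested genes. DESeq2 called 1 member, Mcm2, beside 58 of all genes. The intervals of the interaction are wider, and 43 of 49 lay within 1.5-fold.

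Both agents against vehicle gave the most calls, with Rrm1 and Rrm2 higher and Mcm6 and Ung lower. These 4 are 8.16% of the members beside 8.94% of all tested genes (4.69% higher, 4.25% lower), and the median change was −0.017 against −0.0026 for all tested genes. The interval lay within 1.5-fold for 47 of 49, and those of Ung and Ccne1 reached further. Without control 1 the count was 7, beside 1450 of all genes called in place of 1012. Without control 3 or combination 1 it was 1, beside 506 and 526 of all genes. Without control 2, oxLDL 4, tirzepatide 1 or combination 3 it was 2, beside 475, 885, 890 and 868. It was 1, Ung, without controls 1 and 2 together, beside 967, and 6 without combination 2, beside 1020. The 3 comparisons with vehicle share their 4 control libraries, so a member called in more than 1 of them is not a repeat observation.

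**Figure D2:**
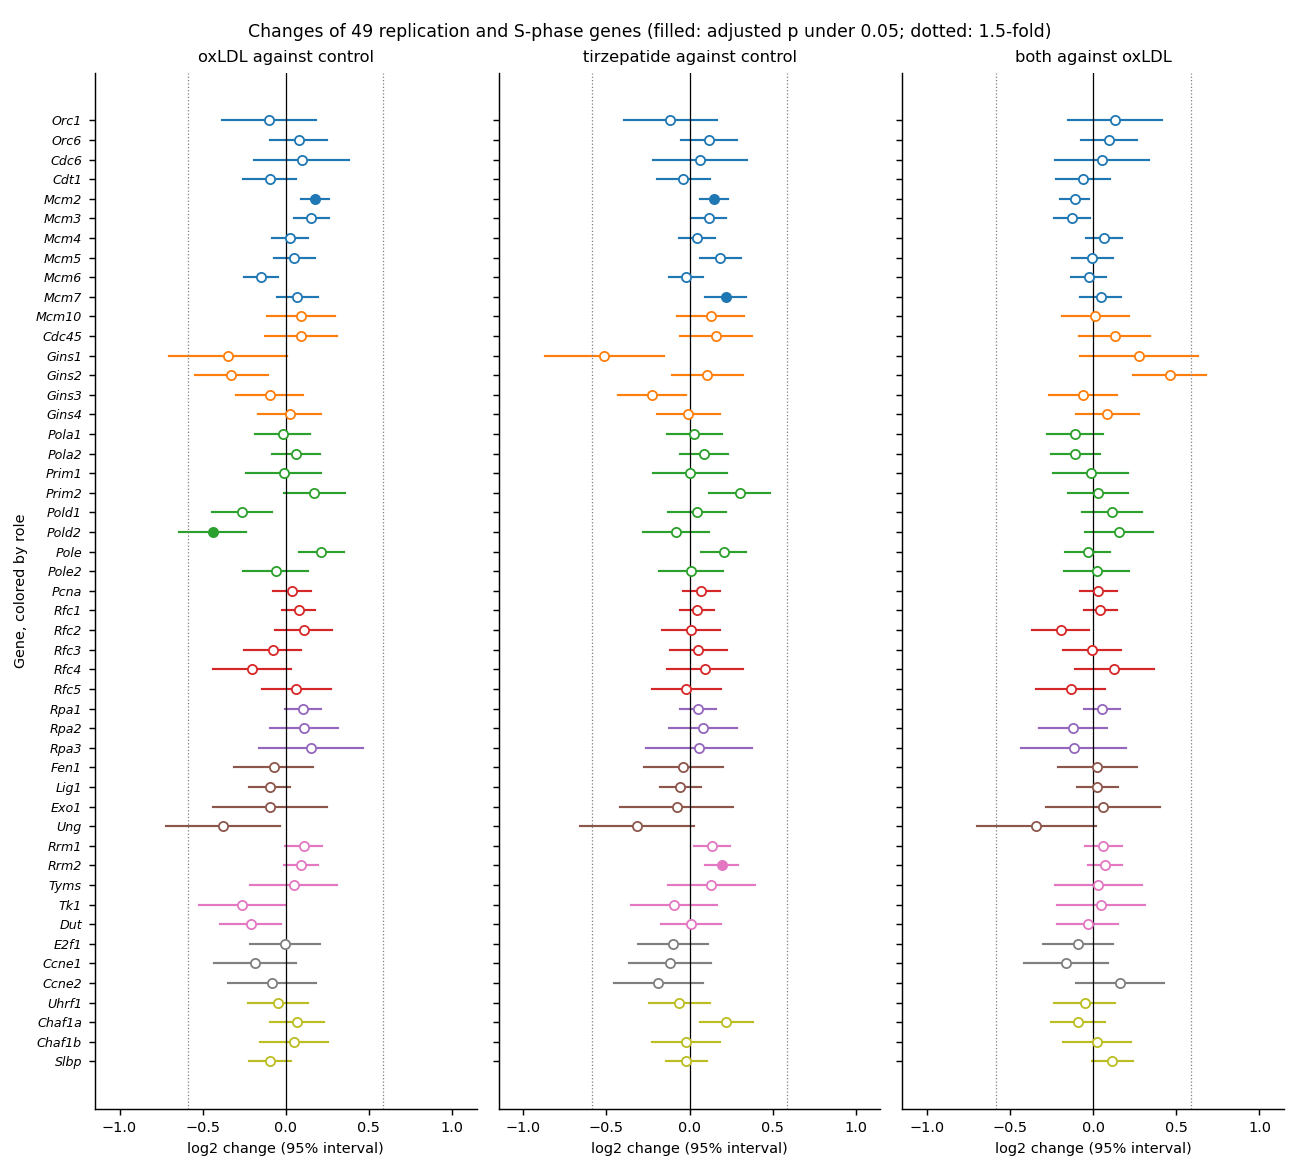
Log2 change of each of the 49 genes (points) with its 95% interval (lines) for oxLDL and tirzepatide against control and for the combination against oxLDL, colored by role; filled points passed the adjusted p of 0.05 and dotted lines mark 1.5-fold. Filled points are Mcm2 and Pold2 for oxLDL and Mcm2, Mcm7 and Rrm2 for tirzepatide, with none for the combination against oxLDL.

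**Figure D3:**
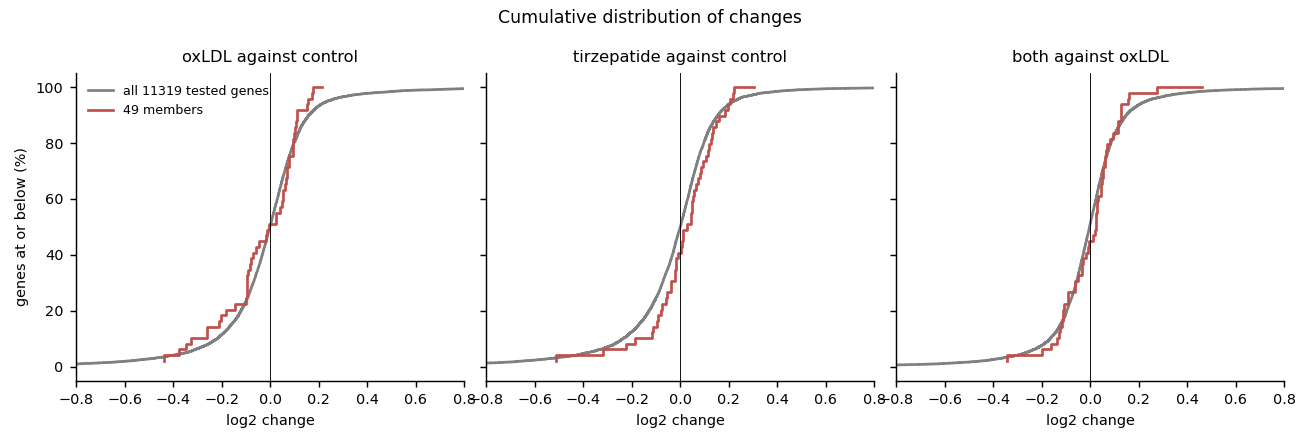
Cumulative share of genes (vertical axis, percent) at or below each log2 change (horizontal axis, shown from −0.8 to 0.8) for the 49 members (red) and all 11319 tested genes (grey). The curves cross 50% at the medians of 0.025, 0.043 and 0.024 for the members and near 0 for all genes.

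Among the 10 licensing genes the MCM ring held every call. Mcm2 (ENSMUSG00000002870), 1 of the ring's 6 subunits, read 53.8, 60.2, 62.3 and 63.4 TPM in control, 64.4, 68.9, 71.8 and 67.4 with oxLDL, 67.3, 65.8, 69.4 and 68 with tirzepatide, and 60.9, 62.3, 63.3 and 66.1 with both. Each single treatment therefore lay above control in 4 of 4 libraries, and the combination overlapped control. The log2 change was 0.18 (SE 0.042, adjusted p = 0.0121 by edgeR) with oxLDL, a fold of 1.13, and 0.15 (SE 0.042, adjusted p = 0.0457) with tirzepatide, against 0.066 (95% interval −0.021 to 0.15) with both. The oxLDL call held in 22 of 25 settings and was lost without oxLDL 2 (adjusted p = 0.0627), without controls 1 and 2 (0.146) and without all libraries numbered 1 (0.0557). The tirzepatide call held in 6 of 25: the adjusted p was 0.0509 to 0.276 in the others, which include leaving out any 1 control, oxLDL or tirzepatide library, or combination 3 or 4.

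The departure of the combination from the sum of both rises of Mcm2 was −0.26 on the log2 scale (SE 0.059, 95% interval −0.38 to −0.14), with an adjusted p of 0.0893 by edgeR, 0.0148 by DESeq2 and 0.0478 with the replicate number as a block; over all settings it ran from 0.0148 to 0.39. It was the smallest adjusted p of any member in that comparison. Control 1, which held the lowest Mcm2, is also the library with the highest acinar and mitochondrial shares, and without it the oxLDL change was 0.15 (adjusted p = 0.0482).

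Mcm6 (ENSMUSG00000026355), another subunit, went the other way. It read 35.2, 36.5, 38 and 35 TPM in control, 33, 30.9, 33.9 and 33.8 with oxLDL, 38.9, 35.5, 35.8 and 35.8 with tirzepatide, and 32, 32.2, 32.6 and 32.5 with both. The oxLDL and combination libraries lay below every control library, and the tirzepatide libraries overlapped control. The change was −0.18 (SE 0.05, adjusted p = 0.0291 by edgeR) with both agents and −0.15 (adjusted p = 0.0979) with oxLDL, the latter short of the threshold except without control 4 (−0.18, adjusted p = 0.0446). The combination call held in 16 of 25 settings; it was lost (adjusted p 0.0503 to 0.12) without control 2 or 3, without combination 1, 3 or 4, without controls 1 and 2, without the libraries numbered 1, with no filter on low counts and with only the compared groups in the fit.

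Mcm7 (ENSMUSG00000029730), also a subunit of the ring, read 46, 54.5, 54.3 and 63.8 TPM in control and 76.1, 70.7, 63.3 and 69.3 with tirzepatide. Tirzepatide 3 was just below control 4, and the oxLDL libraries (53.1 to 62.9) and the combination (55.4 to 68.6) overlapped control. Mean Mcm7 was 54.6 TPM in control and 69.8 with tirzepatide. Its tirzepatide change in counts was smaller, 0.22 on the log2 scale (SE 0.06, adjusted p = 0.0388 by edgeR), called in 11 of 25 settings. The adjusted p was 0.0511 to 0.294 in the others, among them leaving out control 1, 2 or 3, any oxLDL library, tirzepatide 1, 2 or 4, or combination 4, and controls 1 and 2 together, when the change was 0.15.

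The other licensing genes did not pass with all 16 libraries and the settings of the main test. Mcm5 was at 31 to 35.5 TPM in control and 36.2 to 41.4 with tirzepatide, all 4 above control, with a change of 0.19 (95% interval 0.063 to 0.31, adjusted p = 0.0753 by edgeR, and 0.0281 with the replicate number as a block). Cdt1, the licensing factor that is destroyed as S phase begins, overlapped across all groups, at 91 to 127 TPM in control, 98 to 116 with oxLDL, 105 to 124 with tirzepatide and 86.1 to 115 with both; its change was −0.097 (interval −0.26 to 0.062) with oxLDL, −0.037 (interval −0.2 to 0.12) with tirzepatide and −0.16 (adjusted p = 0.214) with both. Control 1 held the lowest control value of Cdt1, and without it the change with both was −0.24 and passed (adjusted p = 0.0251 by edgeR). Cdc6 stayed between 3 and 4.6 TPM in all 16 libraries, and its oxLDL change of 0.097 had an interval of −0.19 to 0.38, so a change of that size in either direction was not detectable at this depth (82 to 115 counts).

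Helicase activation showed no call with all 16 libraries and the settings of the main test, although the estimates of its GINS members ranged widely. Gins2 (ENSMUSG00000031821) read 13.6, 12.9, 14.2 and 12.5 TPM in control, 8.75, 12.4, 9.4 and 12.1 with oxLDL, 14.7, 15.8, 12.5 and 15.6 with tirzepatide, and 14.7, 16.3, 14.9 and 12.9 with both. All 4 oxLDL libraries were below control and below the combination. The combination exceeded oxLDL by 0.46 on the log2 scale (SE 0.11, 95% interval 0.24 to 0.68), with an adjusted p of 0.173 by edgeR, 0.0478 with the replicate block, 0.0234 by DESeq2 and 0.00926 with no filter on low counts, and up to 0.465 over the settings run. Against control the oxLDL change was −0.33 (adjusted p = 0.0846), and it passed without oxLDL 2 (−0.42, adjusted p = 0.0331), with the block (0.0398), by DESeq2 (0.0492) and with no filter (0.0306). Gins2 is also a gene with non-whole counts in every library.

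Gins3, a further GINS subunit, passed in 1 of 25 settings, with tirzepatide against control without tirzepatide 3 (−0.35, adjusted p = 0.0433 by edgeR). Gins1, another GINS subunit, chosen here after its values were seen because it had the widest excursions, was at 8.46 to 11.2 TPM in control, 6.82 to 8.85 with oxLDL, 4.92 to 7.96 with tirzepatide and 8.53 to 11.8 with both. The tirzepatide libraries lay below every control library, with a change of −0.51 (95% interval −0.87 to −0.15, adjusted p = 0.0949 by edgeR), from only 45 to 103 counts per library. Cdc45, which joins the ring with GINS, was at 10.7 to 13.2 TPM in control and 11.4 to 15.4 with both, with a change of 0.22 (interval 0.0022 to 0.44, adjusted p = 0.209 by edgeR). The 13.2 is control 1, and without it the change was 0.32 and passed (adjusted p = 0.0435). Mcm10, a factor that activates the assembled helicase, overlapped in all groups within 7.23 to 10.8 TPM, and its changes against control were 0.093 with oxLDL, 0.13 with tirzepatide and 0.11 with both, with 95% intervals of −0.11 to 0.3, −0.074 to 0.33 and −0.097 to 0.31 in that order.

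Among the 8 polymerase and primase genes Pold2 (ENSMUSG00000020471) carried the clearest oxLDL change of all 49. It read 22.6, 19.1, 25.2 and 22.7 TPM in control, 17.2, 15.2, 17.2 and 16.7 with oxLDL, 20.7, 20.4, 20.7 and 24.8 with tirzepatide, and 19.7, 20.4, 16.4 and 17.4 with both. Every oxLDL library was below every control and tirzepatide library, while the combination overlapped both controls and oxLDL. The oxLDL change was −0.44 (SE 0.098, 95% interval −0.64 to −0.24, adjusted p = 0.00757 by edgeR), a fold of 0.738. This call held in 25 of 25 settings, with changes between −0.51 and −0.39, and without controls 1 and 2 the change was −0.51 (adjusted p = 0.013). With both agents the change against control was −0.28 (adjusted p = 0.0689); it passed without combination 2 (−0.34, adjusted p = 0.0372) and without control 2 (−0.35, adjusted p = 0.0415). The overlap with control came from combination 1 and 2 alone. Against oxLDL the combination differed by 0.16 (interval −0.05 to 0.36).

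The catalytic partner Pold1 and the remaining 6 genes of this role did not pass by edgeR with all 16 libraries and no replicate block. Pole with oxLDL passed with the block (adjusted p = 0.048) and by DESeq2 (0.0495). Without control 1, Pold1 (−0.34, adjusted p = 0.0183) and Pole (0.27, adjusted p = 0.0188) passed with oxLDL, and Pole also with tirzepatide (0.26, adjusted p = 0.0273) and with both (0.23, adjusted p = 0.0251). Without controls 1 and 2 together neither passed. With oxLDL the changes of the role ran from −0.44 for Pold2 to 0.21 for Pole, the catalytic subunit of polymerase epsilon, and 3 of 8 were positive. With tirzepatide they ran from −0.081 for Pold2 to 0.3 for Prim2, a primase subunit that passed in 4 of 25 settings, and 7 of 8 were positive. When oxLDL was added to tirzepatide all 8 were negative, from −0.2 to −0.026. With both agents against control, 2 of 8 were positive.

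Pcna, the clamp, was the most abundant member in every library and changed little. It read 151 to 161 TPM in control, 150 to 166 with oxLDL, 153 to 174 with tirzepatide and 157 to 169 with both, so all groups overlapped. Its change was 0.039 with oxLDL (95% interval −0.074 to 0.15), 0.071 with tirzepatide (interval −0.041 to 0.18) and 0.03 for the combination against oxLDL (interval −0.082 to 0.14). The 5 subunits of replication factor C, which loads the clamp, had oxLDL changes from −0.2 for Rfc4 to 0.11 for Rfc2 and tirzepatide changes from −0.019 for Rfc5 to 0.094 for Rfc4. The 3 subunits of RPA, which coats single-stranded DNA, had positive changes in both comparisons, from 0.1 to 0.15 with oxLDL and from 0.049 to 0.082 with tirzepatide. None of these 9 genes passed with all 16 libraries. Rpa1, the large RPA subunit, changed by 0.15 with both agents (adjusted p = 0.069 by edgeR), and by 0.18 without combination 2, where it passed (adjusted p = 0.0346).

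Ung (ENSMUSG00000029591), which encodes the uracil-DNA glycosylase that removes uracil from new DNA, had the largest change of any member that passed. It read 5.97, 6.37, 6.39 and 5.39 TPM in control, 3.63, 3.77, 4.92 and 4.33 with oxLDL, 4.21, 4.16, 4.21 and 5.02 with tirzepatide, and 3.77, 2.82, 3.14 and 4.89 with both. All 12 treated libraries were below the lowest control library in TPM. Mean TPM was 6.03 in control, 4.16 with oxLDL and 4.4 with tirzepatide, larger falls than the changes in counts tested for each agent alone. The change with both agents was −0.72 (SE 0.17, 95% interval −1.1 to −0.37, adjusted p = 0.00979 by edgeR), a fold of 0.607 from 47 to 95 counts per library. The call held in 25 of 25 settings, with changes from −0.81 to −0.66, and it was −0.78 (adjusted p = 0.022) without controls 1 and 2 and −0.68 (adjusted p = 0.023) without combination 2. Each agent alone gave a lower value that did not pass, −0.38 (adjusted p = 0.227) for oxLDL and −0.32 (adjusted p = 0.314) for tirzepatide, and the departure of the combination from their sum was −0.025 (interval −0.52 to 0.47). Fen1, Lig1 and Exo1, which process flaps, nicks and ends, also had negative changes in all 3 comparisons with control, none past the threshold.

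In nucleotide supply both subunits of ribonucleotide reductase, the enzyme that makes deoxynucleotides, rose in at least 1 comparison. Rrm2 (ENSMUSG00000020649), the small and cell-cycle regulated subunit, read 68.7, 69.8, 67 and 80.3 TPM in control, 75.9, 75.3, 74.4 and 74.9 with oxLDL, 81.3, 84.4, 86 and 75.2 with tirzepatide, and 78.3, 75.7, 80.1 and 81.3 with both. Control 4 was above every oxLDL library and within both other groups, and the other 3 controls were below all 12 treated libraries. The change was 0.19 (SE 0.049, adjusted p = 0.0241 by edgeR) with tirzepatide and 0.16 (SE 0.049, adjusted p = 0.0376) with both. The tirzepatide call held in 17 of 25 settings and the combination call in 15. The former was lost (adjusted p 0.0571 to 0.1) without control 2 or 3, tirzepatide 1, 2 or 3, controls 1 and 2, or the libraries numbered 1, and with only the compared groups in the fit; the latter (adjusted p 0.0504 to 0.143) without control 2 or 3, oxLDL 4, tirzepatide 1, or combination 1, 3 or 4, and in the same last 3 settings.

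Rrm1 (ENSMUSG00000030978), the large subunit, read 30.1, 32, 32.7 and 39.1 TPM in control, 31.7, 35.9, 34.5 and 36.5 with oxLDL, 38.5, 38.6, 37.1 and 38.7 with tirzepatide, and 37.7, 41.1, 35.4 and 33.1 with both. Control 4 was again the highest control, above every oxLDL and tirzepatide library. The change with both was 0.17 (SE 0.053, adjusted p = 0.0472 by edgeR). That call held in 8 of 25 settings; in the others the adjusted p was 0.0504 to 0.194, among them leaving out control 2, 3 or 4, any oxLDL library, tirzepatide 1, 2 or 3, or combination 1 or 2. Tyms had a tirzepatide change of 0.13 (95% interval −0.13 to 0.39), and its libraries overlapped in all comparisons. Tk1, thymidine kinase, gave the lowest oxLDL value of the role, −0.26, and Dut, which degrades dUTP, the lowest with both agents, −0.24. Neither passed with all libraries, and Dut passed with both agents without combination 4 (−0.34, adjusted p = 0.0255).

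**Figure D4:**
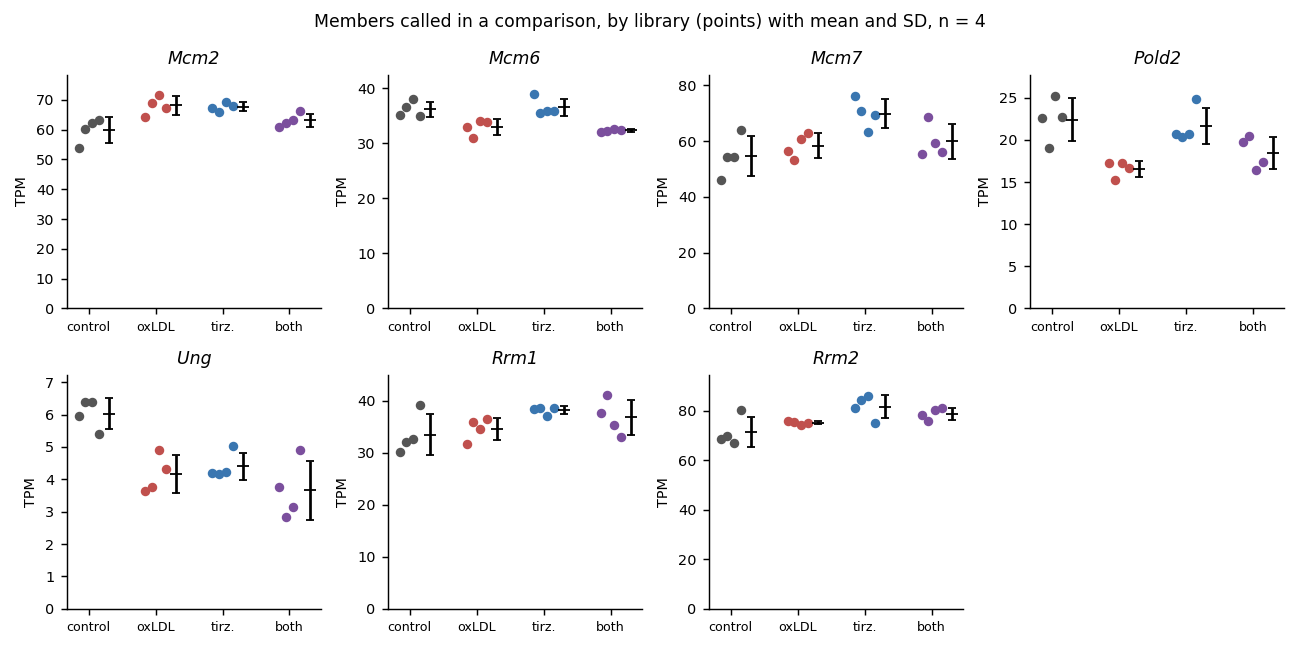
TPM of the 7 genes called in at least 1 comparison, by library (points) with group mean and SD (bars, n = 4), axes from 0. Pold2 is below control in all 4 oxLDL libraries and Ung in all 12 treated libraries, whereas Rrm1, Rrm2 and Mcm7 overlap control.

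The regulators of S-phase entry did not pass with all 16 libraries. E2f1, the transcription factor, was at 6.62 to 10.3 TPM in control, 7.77 to 9.21 with oxLDL, 7.78 to 8.45 with tirzepatide and 7.66 to 8.75 with both, with an oxLDL change of −0.0036 (95% interval −0.21 to 0.21). Ccne1, cyclin E1, was at 9.06 to 14 TPM in control and 6.14 to 10.9 with both, a change of −0.35 (interval −0.6 to −0.096, adjusted p = 0.0782 by edgeR). Without combination 2 it was −0.47 and passed (adjusted p = 0.0149). It was −0.18 and −0.12 with oxLDL and tirzepatide alone. Ccne2, cyclin E2, was at 5.68 to 7.74 TPM in control and 5.57 to 7.58 with both, with changes of −0.083 for oxLDL and −0.19 for tirzepatide. The oxLDL intervals were −0.43 to 0.065 for Ccne1 and −0.35 to 0.18 for Ccne2.

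Chromatin factors that act behind the fork were similar. Uhrf1, which guides maintenance of DNA methylation, was at 12.4 to 18.2 TPM in control, 11.7 to 14.4 with oxLDL, 12.2 to 19 with tirzepatide and 11.2 to 21.9 with both, and its oxLDL change was −0.047 (95% interval −0.23 to 0.13). Slbp, which binds the stem-loop of histone mRNAs, was at 41.7 to 47.4 TPM in control, 40.6 to 43.5 with oxLDL, 42.7 to 48.6 with tirzepatide and 45.3 to 47.2 with both; the combination libraries lay above all oxLDL libraries, by 0.11 on the log2 scale (interval −0.011 to 0.24, adjusted p = 0.519 by edgeR). Chaf1a, the large subunit of the histone chaperone CAF-1, was at 7.8 to 9.07 TPM with tirzepatide and 6.69 to 7.57 with both, a change of −0.24 (interval −0.41 to −0.084, adjusted p = 0.127, range over settings 0.0933 to 0.355), the smallest adjusted p of any member when oxLDL was added to tirzepatide.

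Other genes of the same programme were read from lists that hold none of the 49. Of 64 further replication and S-phase genes, all tested, those that passed with oxLDL include Brca1, a repair factor, which rose by 0.33, and Dctpp1, which degrades dCTP and fell by 0.37. With tirzepatide 1 gene passed, E2f8, an E2F repressor, at 0.35 (1.56% of the list beside 4.08% of all tested genes). With both agents against control Brca1 was at 0.33, and Dctpp1 (−0.49), E2f2 (−0.35) and Msh6 (−0.19) fell. These 4 are 6.25% of the list beside 8.94% of all tested genes. Without control 1 the E2f8 call was lost, Brca1 passed with tirzepatide instead, and 7 genes passed with both agents, beside 1450 of all genes. Without controls 1 and 2, Brca1 and Dctpp1 did not pass with oxLDL, E2f8 did not pass with tirzepatide, and of the 4 with both agents Dctpp1 and E2f2 passed. Of 16 tested G1 regulators, Cdk6, a kinase that acts with D cyclins, fell by 0.36 with oxLDL (6.25% of the list beside 4.54%) and by 0.37 with both, where Rbl2, a pocket protein, fell by 0.26 (12.5% beside 8.94%). When oxLDL was added to tirzepatide, Cdk6 fell by 0.28 and Rb1, the retinoblastoma protein, rose by 0.23 (12.5% beside 1.54%). Cdk6 passed in these comparisons also without controls 1 and 2 or without combination 2, and Rbl2 did not. The G1 count with oxLDL was 4 without combination 2 (583 of all genes called), and that with both was 4 without control 1 (1450 of all genes called). All of these adjusted p-values, where a gene is said to rise or fall, came from edgeR and were under 0.05.

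Genes of the later cycle were called most often with tirzepatide. Of 40 mitosis and G2/M genes, 7 rose in that comparison (17.5%, beside 2.34% of all tested genes that rose): Top2a, Cdc20, Aurka, Kif20a, Hmmr, Prc1 and Ube2c, by 0.19 to 0.35 on the log2 scale, and 36 of the 40 values were positive with a median of 0.17. Kif20a, a mitotic kinesin, gave 0.35 (SE 0.073, adjusted p = 0.00742 by edgeR) and Ube2c, an enzyme of the anaphase-promoting complex pathway, 0.3 (SE 0.062, adjusted p = 0.00828). In the same comparison the 49 replication genes had a median of 0.043. The difference between the lists was not tested. Kif20a also rose with oxLDL (0.27, adjusted p = 0.0301; 2.5% of the list beside 2.49%), which was lost without control 1 and without controls 1 and 2, and with both agents (0.29, adjusted p = 0.0147), where Ccnb1 and Ndc80 rose as well (7.5% of the list beside 4.69%). When oxLDL was added to tirzepatide, Ube2c fell by 0.3 (2.5% of the list beside 0.777% of all tested genes that fell). There 3 of the 40 values were positive, with a median of −0.11. For the interaction 4 of the 40 were positive, with a median of −0.17, and no gene of the list passed. The tirzepatide count was 2, Kif20a and Ube2c, without controls 1 and 2, and 2 without control 2 or tirzepatide 3. It was 3 without control 3, control 4, tirzepatide 1 or tirzepatide 2, and 7 without combination 2. Calls over all genes were then 204, 119, 293, 247, 493, 186, 199 and 542, in that order, in place of 462.

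Summed over the 49 genes, the level was 1228 to 1320 TPM in control, 1250 to 1334 with oxLDL, 1349 to 1399 with tirzepatide and 1276 to 1340 with both. Every tirzepatide library lay above every library of the other groups. Pcna, Cdt1 and Rrm2 weigh most on the sum as the most abundant members, but Cdt1 was no higher with tirzepatide (mean 113 TPM against 114 in control). Mean Mcm7 was 69.8 TPM with tirzepatide against 54.6 in control, Pcna 165 against 154 and Rrm2 81.7 against 71.5. How far the separation rests on single genes was not tested. Giving each gene equal weight, the mean deviation of log2(TPM + 1) from each gene's mean over all libraries was 0.022 to 0.065 in the tirzepatide libraries, −0.08 to 0.029 in control, −0.08 to 0.028 with oxLDL and −0.04 to 0.04 with both, so on this scale the groups overlapped. The mitosis and G2/M list also had its highest group mean with tirzepatide. Its deviation was 0.043 to 0.18 with tirzepatide, −0.1 to −0.03 in control, −0.064 to 0.053 with oxLDL and −0.065 to −0.011 with both. From control to oxLDL the 2 lists parted, although the libraries of these groups overlapped on each. The mean deviation went from −0.0065 to −0.026 for the members and from −0.066 to −0.0093 for the mitosis list. Libraries 1 and 2 of the oxLDL group, like control 1, were low for the members, at −0.08 and −0.079 against 0.028 and 0.027 for oxLDL 3 and 4, and combination 1 and 2 (−0.032 and −0.04) were below combination 3 and 4 (−0.0055 and 0.04). In these groups the libraries numbered 1 and 2 thus had both the lower member level and the higher mitochondrial share; in the control and tirzepatide groups the member level did not divide by number in this way. In bulk RNA a smaller share of cells in S phase and less transcript per cell cannot be told apart, and no measure of the cycle itself was among the data. The part that the mitochondrial share, the acinar markers or the cycle lists play in these values was not tested.

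**Figure D5:**
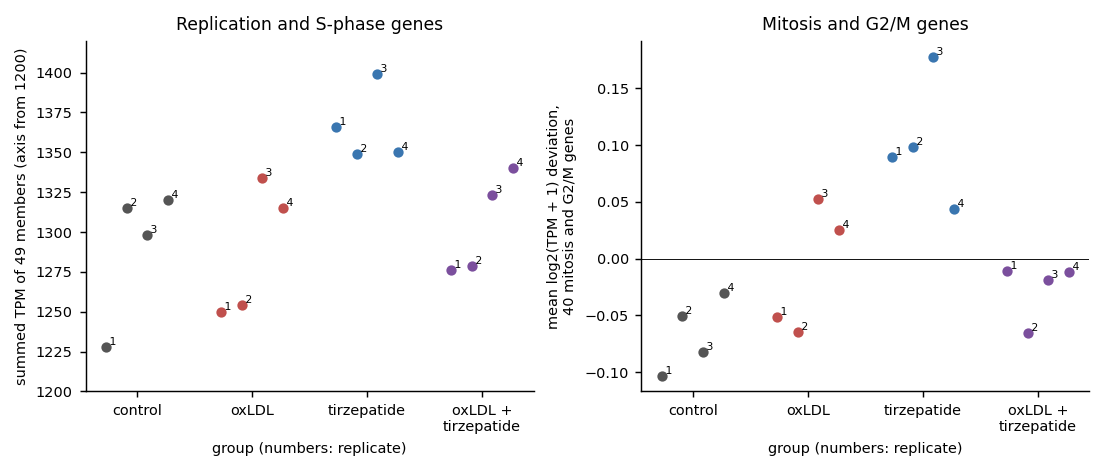
Left, summed TPM of the 49 genes in each library (vertical axis not from 0); right, mean log2(TPM + 1) deviation of the 40 mitosis and G2/M genes; points are libraries, numbered by replicate, in 4 groups. The tirzepatide libraries sit highest on the left, at 1349 to 1399 TPM, and 3 of 4 sit above all other libraries on the right.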

How the data were processed

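mRNA captured on beads from RAW264.7 cells was sequenced in 16 libraries, per the labels' protocols. The deposited table gives an expected count per gene and library, estimated by the authors with RSEM and not scaled between libraries, and the TPM the authors deposited beside it. Tools listed in the submitters' processing notes are RSEM, Bowtie2 2.2.8, fastp 0.18.0 and StringTie 1.3.1, and the builds are GRCm39 and mm39; the annotation release is not given in the sources used here. RSEM divides reads shared between genes, which makes counts of similar genes depend on each other.

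Expected counts were rounded and fitted by edgeR 4.0.16 in R 4.3.3 (TMM scaling, filterByExpr at a minimum count of 10, glmQLFit, then glmQLFTest) as 1 model of 4 group means over all 16 libraries. Benjamini-Hochberg adjustment was over all 11319 tested genes of each of 6 contrasts, and a gene was called at an adjusted p below 0.05. The biological coefficient of variation was 0.0633. Replicates of a group differed by more than counting error (chi-square per degree of freedom 2.71 to 17.7 over 24 pairs), and each was entered as a sample. This spread may be technical, so it does not show that the replicates were independent cultures. TPM served to give levels, and log2(TPM + 1) to average genes. The script was tested on simulated data first.

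The members and lists were chosen with earlier results of these data known. Genes named with full values were those called in any contrast, the member with the smallest p where none was called, and 16 fixed members. Members named as the end of a role's range, and the 1.5-fold bound set against intervals, were chosen after values were seen. Alternatives were the replicate block, only the compared groups, DESeq2 1.42.0 or its size factors, 2 other filters, each library left out in turn, and controls 1 and 2 or the libraries numbered 1 left out together. Promoter windows came from RefSeq on GRCm38.p6. A result of the list of further replication genes is not reported here.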

Additional observations from a re-analysis of the deposited data

Results flagged for a closer look

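Single libraries stood apart from the other 3 of their group, by a gap test at its 95% critical value, in 8 of 84 groups of 4 values (21 members in 4 groups); chance alone flags about 1 in 20. Mcm6 was 38.9 TPM in tirzepatide 1 against 35.5 to 35.8 in the others, Rrm1 37.1 in tirzepatide 3 against 38.5 to 38.7, and Pold2 24.8 in tirzepatide 4 against 20.4 to 20.7. Ung was 5.02 TPM in tirzepatide 4 against 4.16 to 4.21. Cdc45 was 13.2 TPM in control 1 against 10.7 to 11.1, and Slbp 41.7 in control 3 against 46.9 to 47.4. E2f1 was 8.75 TPM in combination 3 against 7.66 to 7.83, and Uhrf1 11.7 in oxLDL 1 against 14.2 to 14.4.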

How the results depend on the processing

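The labels do not say that a replicate number marks a shared source, and the check over genes did not meet the bar for pairing: deviations of same-numbered libraries correlated at −0.127 to 0.189 over 24 pairs, those of others at −0.208 to 0.145 over 72, and 6 of 16 libraries correlated best with their own number. With the replicate number as a block, 4 members were called with oxLDL, 5 with tirzepatide, 1 for the combination against oxLDL and 1 for the interaction, in place of 2, 3, 0 and 0; calls over all genes went from 514 to 734, 462 to 750, 4 to 17 and 8 to 29, from 174 to 378 for the combination against tirzepatide and from 1012 to 1357 against control. The mitochondrial share was higher in libraries numbered 1 and 2 in every group. DESeq2 gave 4, 4, 1 and 1 in that order, beside 663, 661, 21 and 58 of all genes. No filter on low counts gave 1, Gins2, for the combination against oxLDL, beside 32 of all genes. For both agents against control, 4 members became 1 with only the compared groups in the fit and 2 with no filter. They became 1 without controls 1 and 2 or without the libraries numbered 1. Calls over all genes were then 410, 1063, 967 and 765, in that order, in place of 1012. With tirzepatide the member count was 0 under each of those settings but the unfiltered one. Calls over all genes then fell from 462 to 264 (only the compared groups), 204 (controls 1 and 2) and 291 (libraries numbered 1). With oxLDL the member count was 1 without controls 1 and 2, beside 307 of all genes in place of 514. Leaving out 1 library at a time gave 2 to 4 members with oxLDL, 0 to 4 with tirzepatide and 1 to 7 with both against control, and 0 in the other comparisons. Calls over all genes then ran from 307 to 594 with oxLDL, 119 to 542 with tirzepatide and 475 to 1450 with both against control. They ran from 2 to 8 for both against oxLDL, 58 to 444 for both against tirzepatide and 1 to 16 for the interaction. The median change of the members ran from −0.0012 to 0.027 with oxLDL, 0.0053 to 0.066 with tirzepatide, −0.036 to 0.026 with both against control, −0.0067 to 0.04 with both against oxLDL, −0.066 to −0.024 with both against tirzepatide and −0.057 to −0.003 for the interaction, so 3 of the 6 took either sign.

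Over 116 pairs of a named member and a comparison, 2765 values under other settings kept direction and side of the threshold in 2572 cases, lost a call in 80, gained one in 12 and changed sign in 101, over 32 pairs; none of the 32 was called, and the cause was not tested. Without controls 1 and 2 the sign changed for Ccne2 with oxLDL (0.036), Slbp with tirzepatide (0.061), and for the interaction Cdt1 (0.013), Ccne1 (0.058) and Ung (0.036). Without the libraries numbered 1 it changed for Slbp with tirzepatide (0.026), for Mcm10 (−0.036), Cdc6 (−0.058) and Tyms (−0.0025) in the combination against oxLDL, for Uhrf1 against tirzepatide (0.027), for Mcm10 (−0.018) and Ccne2 (−0.036) against control, and for the interaction Mcm6 (0.024), Cdt1 (0.058) and Ccne1 (0.045). DESeq2's size factors gave Pcna 0.00079 against tirzepatide and its test 0.00081.

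Leaving out 1 library gave these ranges of log2 change across 0. OxLDL against control: Ccne2 −0.14 to 0.029, E2f1 −0.091 to 0.082, Tyms −0.0799 to 0.10 and Uhrf1 −0.10 to 0.0098. Tirzepatide against control: Cdc6 −0.018 to 0.13, Cdt1 −0.12 to 0.018 and Slbp −0.073 to 0.0087. Both against control: Ccne2 −0.00503 to 0.19 and Slbp −0.032 to 0.0497. Both against oxLDL: Cdc6 −0.011 to 0.10, Cdt1 −0.11 to 0.0013, Mcm10 −0.058 to 0.055, Mcm5 −0.045 to 0.036, Mcm7 −0.015 to 0.073, Pcna −0.0018 to 0.0602 and Tyms −0.028 to 0.15. Both against tirzepatide: E2f1 −0.034 to 0.026, Mcm10 −0.092 to 0.026, Pcna −0.042 to 0.0201, Rrm1 −0.0048 to 0.068, Tyms −0.16 to 0.037 and Uhrf1 −0.089 to 0.013. Interaction: Ccne1 −0.17 to 0.041, Cdc45 −0.13 to 0.0395, Cdc6 −0.078 to 0.069, Cdt1 −0.0800 to 0.054, E2f1 −0.079 to 0.093, Mcm6 −0.023 to 0.026, Tyms −0.21 to 0.026, Uhrf1 −0.047 to 0.063 and Ung −0.11 to 0.098. The interaction uses all 4 groups, so it has no fit with fewer. With 4 libraries a group and a called change as small as 0.15, single libraries decide several calls, and genes under about 100 counts, such as Ung and Gins1, have intervals too wide to show changes of that size.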
